A study of Equus caballus with 6 samples.

Results

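Histone genes were followed in the inner cell mass (ICM) and the trophectoderm (TE) of the day 8 horse blastocyst. The genes were taken by symbol: a row belonged to the set when its annotated symbol began with HIST1H, HIST2H or HIST3H or named a histone variant by its older or newer form, and numbered loci were kept out. This gave 32 of the 12270 rows of the table. Of these, 28 carry a HIST symbol and are called cluster histones here, and the other 4 are the H2A variants H2AFV, H2AFY, H2AFY2 and H2AFZ. No row had a symbol of the H1F or H3F kind, so such variants of histone H1 and H3 are not among the members. The row HISTH4 falls outside the rule and is not counted.

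Histones are the small basic proteins around which DNA is wrapped. The core histones H2A, H2B, H3 and H4 form the nucleosome, and H1 binds the DNA that links nucleosomes. Cluster histone genes lie side by side, mostly lack introns, and are expressed mainly in S phase, when new DNA has to be packaged. Their messenger RNAs mostly end in a stem-loop bound by SLBP instead of a poly(A) tail. Variant genes stand alone, are spliced and polyadenylated, and are expressed through the cell cycle.

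Libraries of Equus caballus, 3 of ICM (15, 22 and 25) and 3 of TE (16, 23 and 24), were compared, all from blastocysts produced in vivo in superovulated mares and treated with the protease mix Pronase. The ICM was obtained by immunosurgery, the lysis of outer cells by antibody and complement, and the TE was taken mechanically. Each tissue had its own isolation method, and effects of tissue and method cannot be told apart. The labels name no mare, age or pairing of an ICM with a TE, so p-values measure only the spread between these libraries. In bulk tissue, fewer cells expressing a gene and less RNA per cell cannot be told apart either. An amplification kit is named, with a different version in the sample labels and in the series text. The part of amplification in the spread between libraries was not tested. How the cDNA was primed is not given in the sources used here.

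Library totals over the table ran from 6526212 to 10686659 reads. Of the lineage markers tested, 3 of 4 of the epiblast and 1 of 3 of the hypoblast were called higher in ICM, and 4 of 4 of the trophectoderm higher in TE. Of all genes tested 0.933% were called in each direction. ICM 25 stood apart from the other ICM libraries in some of these markers. RPKM are reads per kilobase of counted length, here scaled by a size factor of each library and not by its total reads in the table. ICM 25 held 1.75 RPKM of the epiblast factor NANOG, where ICM 15 and 22 held 14.1 and 12.4. It was also the lowest ICM library in SOX2 and POU5F1, but not in the epiblast genes KLF4 and GDF3. The hypoblast factors GATA4 and GATA6, at 2.33 and 6.19 RPKM in ICM 25, lay below every TE library there (5.60 to 7.93 and 7.20 to 11.4 RPKM in TE), against the label. The hypoblast gene PDGFRA went with the label, at 6.14 RPKM in ICM 25 and 0.65 to 2.58 RPKM in TE. NANOG in ICM 25 was also above every TE library (0.04 to 0.16 RPKM in TE). Testing asked for at least 1 RPKM in at least 3 libraries. NANOG and GDF3 reached 1 RPKM in the ICM libraries alone, so their pass through this filter already required a difference. SOX2 and CDX2 did not pass it and were not tested. Of the blood cell markers only CD74 had a row, at 0.79 to 2.44 RPKM in ICM and 0.08 to 0.41 in TE. Of the cumulus and granulosa cell markers only CYP19A1 had a row, at 4.36, 6.52 and 26.1 RPKM in ICM 15, 22 and 25 and at 19.1, 5.36 and 14.0 RPKM in TE 16, 23 and 24. The part of these cells in the results below was not tested.

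By the authors' coordinates, on a build that is not given, 21 cluster histones lie on chromosome 20 between 23639554 and 26131200, 5 on chromosome 5 between 47063193 and 47427666, and 2 on chromosome 14 between 93283126 and 93284210. The row HIST1H4A, whose symbol belongs to the first cluster, lies on chromosome 5 (47427010 to 47427666) among the HIST2 rows. Of the 28 cluster rows, 25 were counted over their whole span, as intronless genes are. Of these rows, 7 of H2B were counted over 381 bases, and 3 of H2A over 393. In 21 of these 25 rows the counted length was a multiple of 3, as in coding models without untranslated regions, against 47.3% of all rows. A multiple of 3 alone does not show a coding model, and lengths differed within a class. The H4 rows were counted over 312 (HIST1H4J), 330 (HIST1H4B), 432 (HIST1H4C) and 657 bases (HIST1H4A). HIST1H2AG (501), HIST1H2AH (489) and HIST1H2BF (474) were also longer than the commonest length of their class. The 3 cluster rows not counted over their whole span were HIST1H1C (771 bases counted in a span of 47130), HIST1H2AC (457 in 28026) and HIST1H2BD (770 in 8260). The span of HIST1H1C encloses another row, HFE. Cluster genes of a class are nearly identical in sequence and the treatment of reads that match several of them is not given, so single rows of these genes are uncertain.

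Among the histone rows followed here the highest level was that of H2AFZ, which encodes the Z variant of H2A found at promoters. It stood at 912, 873 and 484 RPKM in ICM 15, 22 and 25 and at 784, 801 and 906 RPKM in TE 16, 23 and 24. ICM 25 was the lowest of the 6 libraries, and the other ICM libraries lay within or just above the TE values. By its mean over all libraries H2AFZ ranked 33 of 12270 rows, and it made up 61.9% ± 4.86 of the summed histone RPKM in ICM and 60.2% ± 1.66 in TE (SD, n = 3 each). Its difference between the tissues was not called (log2 difference -0.19, SE 0.30, 95% interval -0.87 to 0.49, limma adjusted p = 0.81). Without ICM 25 the difference turned to 0.11. The shares above are of the named rows only, without numbered loci. Most cluster messenger RNAs lack a poly(A) tail and the priming of the cDNA is not given. The part of priming in these shares was not tested.

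**Figure D1:**
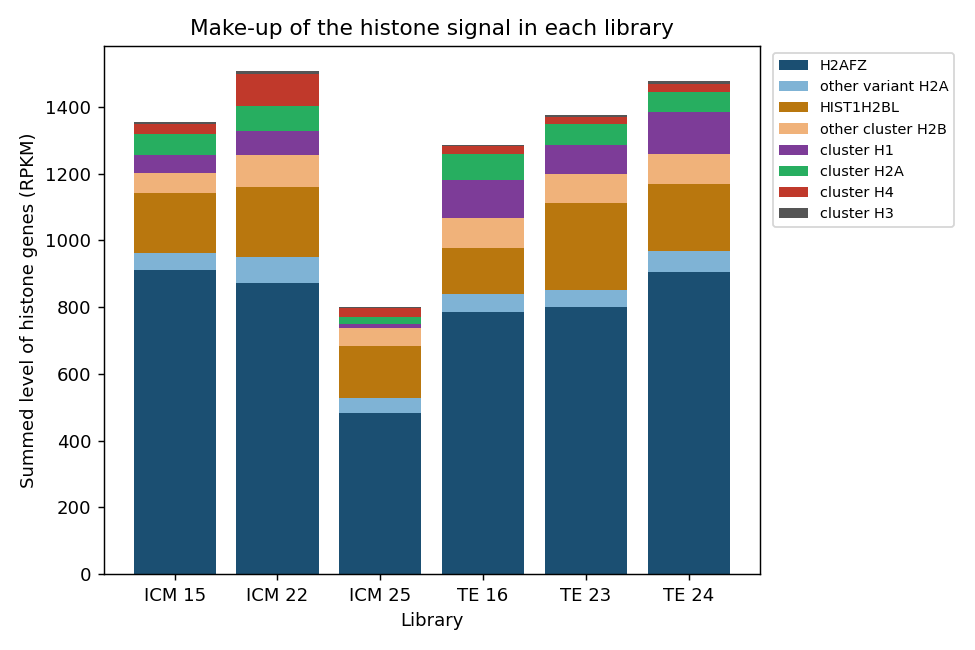
Stacked bars give the summed level of the histone genes in RPKM (y axis) for each ICM and TE library (x axis), split by gene or class. H2AFZ and HIST1H2BL take most of every bar, and the bar of ICM 25 is the lowest at 801 RPKM, against 1287 to 1507 in the other libraries.

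H2AFV, the second gene for the Z variant, was at 42.1, 70.2 and 40.0 RPKM in ICM 15, 22 and 25 and at 46.6, 42.0 and 55.1 RPKM in TE 16, 23 and 24. The groups overlapped, with ICM 22 the highest and ICM 25 the lowest (log2 difference 0.04, SE 0.28, 95% interval -0.59 to 0.68, limma adjusted p = 0.96). H2AFY encodes macroH2A1, a large H2A variant of silent chromatin. It was at 5.32, 5.44 and 2.74 RPKM in ICM 15, 22 and 25 and at 7.56, 6.81 and 7.89 RPKM in TE 16, 23 and 24. All ICM values lay below all TE values, but the difference was not called (log2 difference -0.65, SE 0.28, 95% interval -1.29 to -0.02, limma adjusted p = 0.28; -0.40 without ICM 25). Its relative H2AFY2, for macroH2A2, was low, at 0.99, 0.92 and 1.20 RPKM in ICM 15, 22 and 25 and at 1.65, 1.31 and 0.99 RPKM in TE 16, 23 and 24, with 31 to 55 reads in any library. Its groups overlapped (limma adjusted p = 0.76).

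Among the cluster histones HIST1H2BL, an H2B gene, was the most abundant. It stood at 181, 209 and 155 RPKM in ICM 15, 22 and 25 and at 137, 262 and 199 RPKM in TE 16, 23 and 24. The values overlapped, and the TE libraries spread more than the ICM libraries (log2 difference -0.09, SE 0.29, limma adjusted p = 0.91). It held 15.5% ± 3.35 of the summed histone RPKM in ICM and 14.4% ± 4.26 in TE. The next cluster gene, HIST1H1A, had a mean over all libraries of 54.7 RPKM, and 18 of the 28 cluster histones had a mean under 10 RPKM. Low levels were also common in the table as a whole, where 72.9% of rows had a mean under 10 RPKM.

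**Figure D2:**
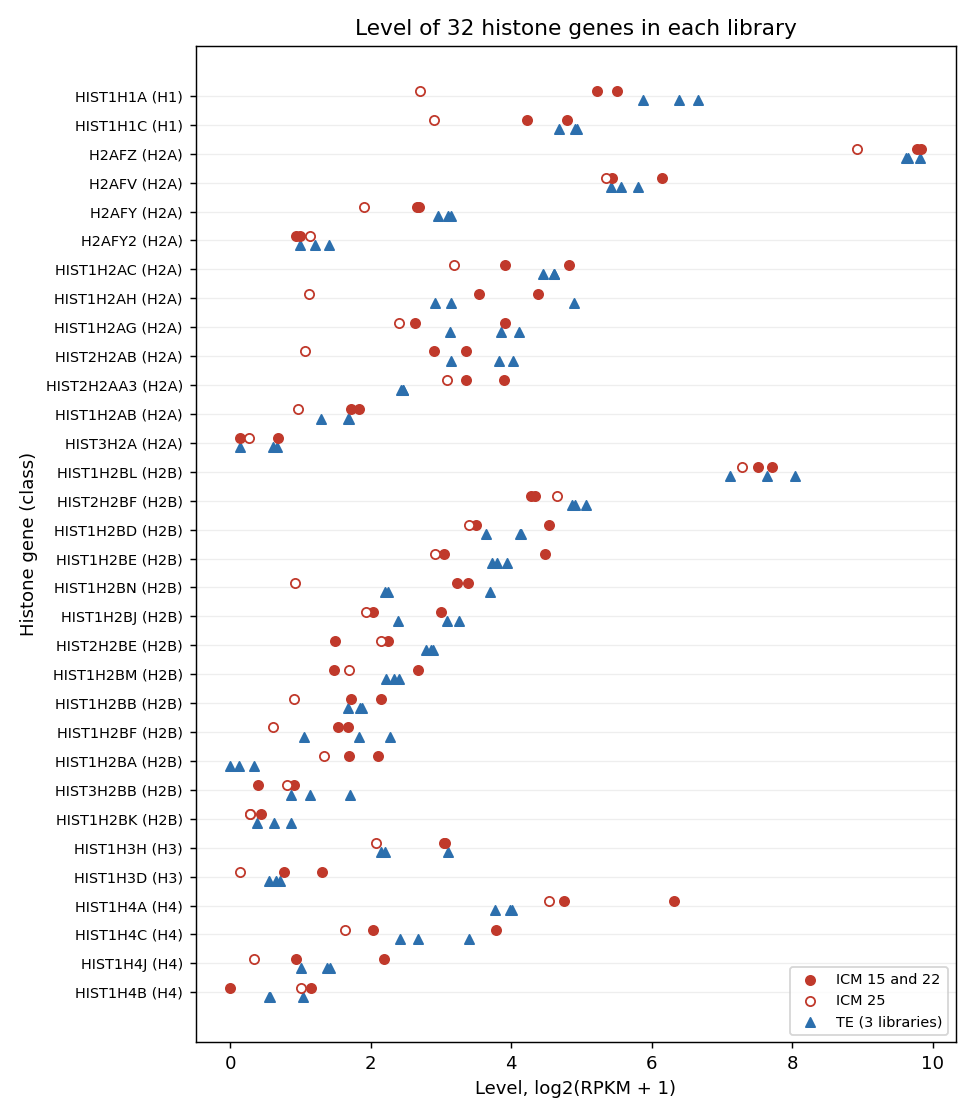
Each row is a histone gene with its class, and the x axis is its level as log2(RPKM + 1). Filled circles are ICM 15 and 22, open circles ICM 25 and triangles the 3 TE libraries; H2AFZ stands far to the right, followed by HIST1H2BL, and ICM 25 is below all other libraries in 20 of the 32 genes.

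Set against TE, few histone genes were called in ICM. Of the 32 genes, 28 had at least 1 RPKM in at least 3 libraries and were tested within the fit of all 9436 such genes. HIST1H2BA was the only histone gene called, higher in ICM, where 0.933% of all genes tested were called in that direction. No histone gene was called higher in TE, against 0.933% of all genes (limma, adjusted p at 0.05; voom called 0). An unadjusted p under 0.05 was found for 3 histone genes with ICM higher and 3 with TE higher, against 5.28% and 11.6% of all genes tested. The difference was below 0, that is lower in ICM, for 23 of the 28 histone genes and for 64.7% of all genes tested. It was below 0 for 18 of the 28 after median of ratios rescaling, 21 after quantile normalization and 14 without ICM 25. The 64.7% does not apply to these fits, where the median log2 difference of all genes tested was 0.01, -0.03 and -0.01. The median log2 difference was -0.28 for the histone genes and -0.15 for all genes tested; without ICM 25 it was -0.02 and -0.01. Values of ICM lay wholly above TE in 3 of the 28 genes, against 6.81% of all genes tested, and wholly below TE in 4, against 17.8%.

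**Figure D3:**
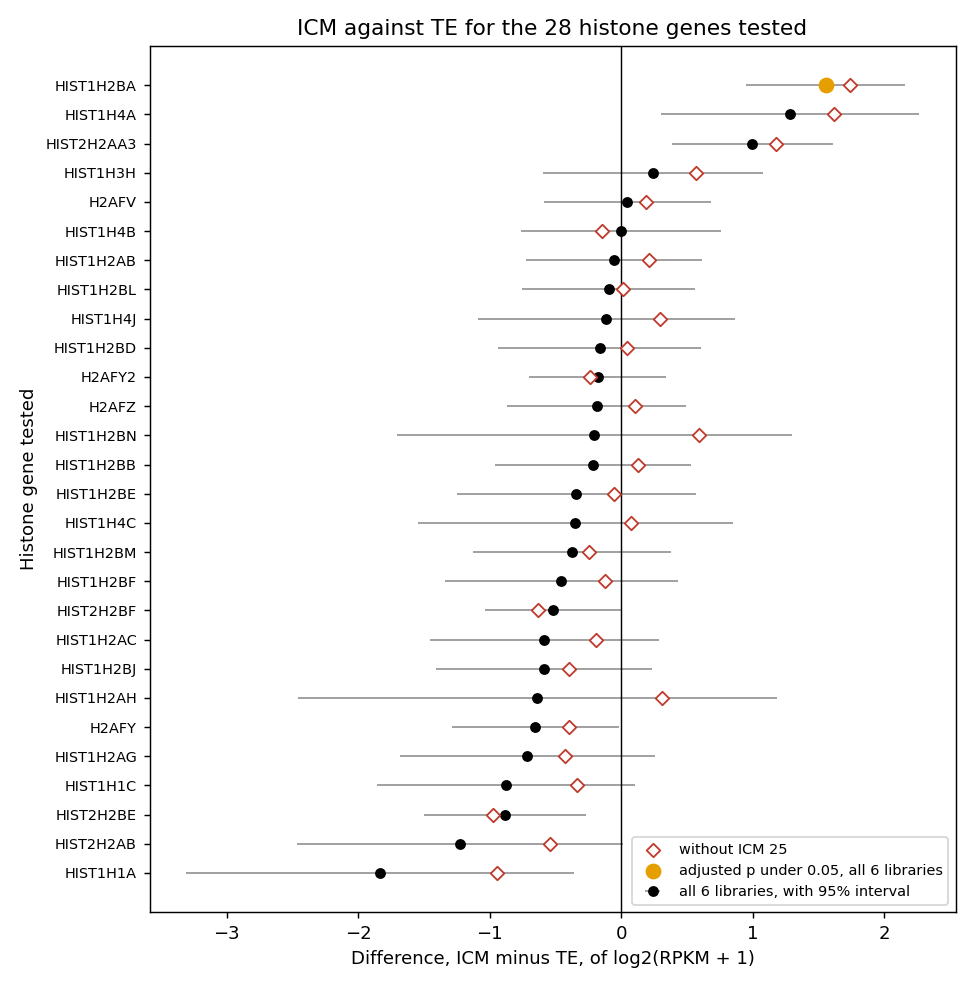
Points give the log2 difference, ICM minus TE, of the 28 histone genes tested (x axis, on the log2(RPKM + 1) scale) with 95% intervals, and diamonds give it without ICM 25. HIST1H2BA at 1.55 is the only one called with all libraries, and the interval includes 0 for 22 of the 28 genes.

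HIST1H2BA encodes the H2B form known from testis, and in mouse also from oocytes. It stood at 3.29, 2.24 and 1.53 RPKM in ICM 15, 22 and 25 and at 0.088, 0 and 0.27 RPKM in TE 16, 23 and 24. Every ICM library was above every TE library, and TE was close to 0. In reads this was 35, 29 and 16 in ICM 15, 22 and 25 and 1, 0 and 3 in TE 16, 23 and 24. Scaled by the size factors of the libraries, the 80 reads of ICM were 18.0 times the 4 reads of TE (exact 95% interval 6.77 to 67.7, counting error only). The log2 difference was 1.55 (SE 0.27, limma adjusted p = 0.032), and 4.23 by voom on the reads, since the pseudocount of 1 compresses so low a gene. HIST1H2BA reached 1 RPKM in the 3 ICM libraries alone, so its pass through the filter already required a difference. With no filter the adjusted p was 0.033. Its difference lay between 1.36 and 1.74 with any 1 library left out, while the call held without ICM 25 and was lost without any other library. The adjusted p was 0.0069 without ICM 25, 0.075 and 0.068 without ICM 15 and 22, and 0.16, 0.19 and 0.13 without TE 16, 23 and 24. Without any 1 of the TE libraries at most 1 of all genes tested was called higher in ICM.

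The 5 cluster histones of chromosome 5 went both ways. HIST2H2AA3, an H2A gene, was at 9.23, 14.0 and 7.49 RPKM in ICM 15, 22 and 25 and at 4.38, 4.51 and 4.52 RPKM in TE 16, 23 and 24. The ICM values lay above the TE values, which barely varied (log2 difference 0.998, SE 0.27, 95% interval 0.38 to 1.61, limma adjusted p = 0.11). HIST1H4A, an H4 gene, was at 25.9, 78.5 and 22.2 RPKM in ICM 15, 22 and 25 and at 14.8, 15.1 and 12.6 RPKM in TE 16, 23 and 24. ICM 22 was far above the other ICM libraries, which were still above TE (log2 difference 1.28, SE 0.43, 95% interval 0.30 to 2.26, limma adjusted p = 0.18). Without ICM 22 its difference was 0.73.

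The H2B genes of chromosome 5 lay lower in ICM. HIST2H2BE was at 1.82, 3.77 and 3.43 RPKM in ICM 15, 22 and 25 and at 6.39, 6.29 and 5.93 RPKM in TE 16, 23 and 24. HIST2H2BF was at 19.3, 18.6 and 24.3 RPKM in ICM 15, 22 and 25 and at 28.9, 28.05 and 32.6 RPKM in TE 16, 23 and 24. In both genes the groups were apart, and ICM 25 was not the lowest library. Neither was called (HIST2H2BE log2 difference -0.88, SE 0.27, limma adjusted p = 0.15; HIST2H2BF -0.51, SE 0.23, adjusted p = 0.30). HIST2H2AB, an H2A gene whose row lies 811 bases from HIST2H2BE, was at 9.31, 6.45 and 1.09 RPKM in ICM 15, 22 and 25 and at 13.2, 15.3 and 7.89 RPKM in TE 16, 23 and 24. Its groups overlapped between ICM 15 and TE 24 (log2 difference -1.23, SE 0.55, limma adjusted p = 0.30; -0.54 without ICM 25). ICM and TE were apart in 4 of the 5 cluster rows of chromosome 5 and in 2 of the 21 of chromosome 20, where 25.4% of all rows were; this split by chromosome was chosen after its values were seen and was not tested.

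HIST1H1A, for linker histone H1, had the lowest difference of the 28 genes tested. It was at 36.5, 44.7 and 5.51 RPKM in ICM 15, 22 and 25 and at 82.9, 58.1 and 100.3 RPKM in TE 16, 23 and 24. All ICM libraries lay below TE, and ICM 25 was far below the other ICM libraries (log2 difference -1.83, SE 0.65, 95% interval -3.31 to -0.36, limma adjusted p = 0.20). Without ICM 25 the difference was smaller, -0.94, and was called (limma adjusted p = 0.046). With any other library left out HIST1H1A was not called (limma adjusted p from 0.13 without ICM 22 to 0.52 without TE 24). HIST1H1C, the other linker gene, was at 17.7, 26.7 and 6.45 RPKM in ICM 15, 22 and 25 and at 29.7, 29.1 and 24.8 RPKM in TE 16, 23 and 24, and its groups overlapped (log2 difference -0.88, SE 0.43, adjusted p = 0.36; -0.34 without ICM 25).

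**Figure D4:**
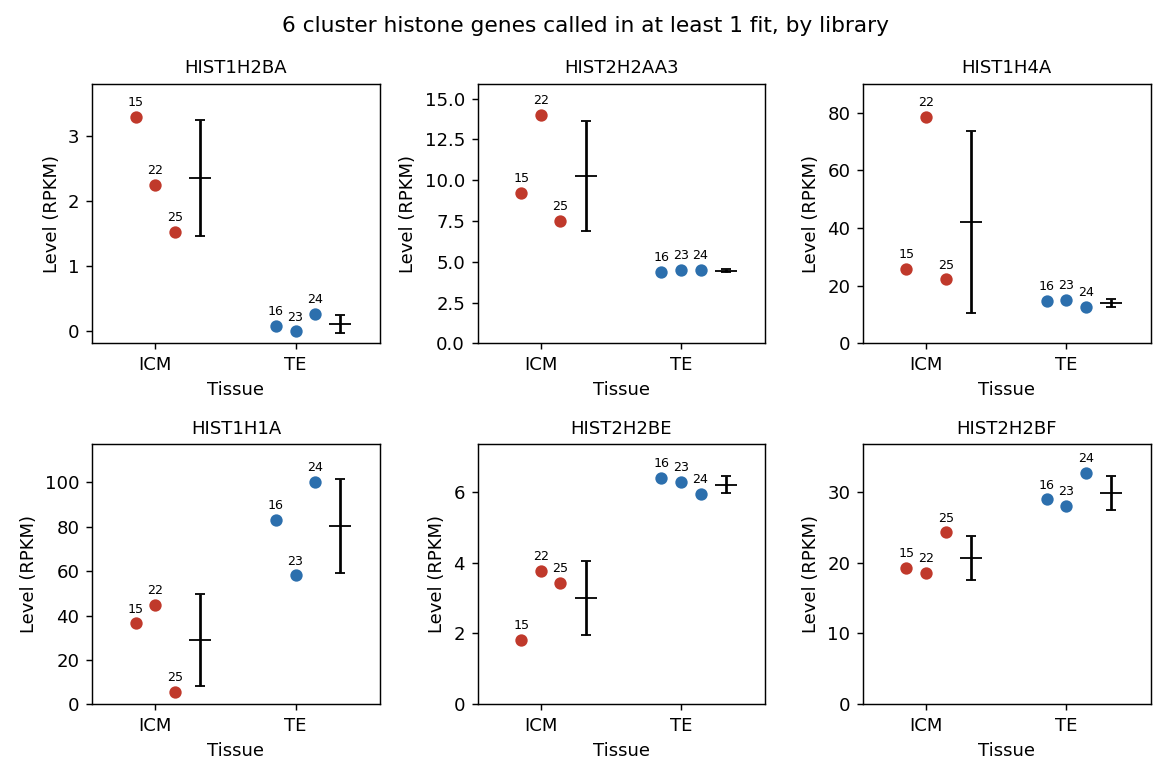
Levels in RPKM (y axis) of the 6 cluster histone genes called in at least 1 fit, by tissue, ICM left and TE right. A numbered point stands for each library, with the mean and SD of 3 libraries beside them. HIST1H2BA, HIST2H2AA3 and HIST1H4A are higher in every ICM library, and HIST1H1A, HIST2H2BE and HIST2H2BF lower.

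These 6 genes were shown because they were called in at least 1 fit, the fit without ICM 25 included, so that fit is no separate support for them. All of them were called when ICM 25 was left out, 3 of the 28 tested in each direction. In that fit 5.89% of all genes passed with ICM higher and 5.62% with TE higher. HIST1H4A then had a log2 difference of 1.61 (limma adjusted p = 0.038), HIST2H2AA3 of 1.18 (0.016), HIST2H2BE of -0.97 (0.047) and HIST2H2BF of -0.63 (0.048). In the authors' deposited table, 3 of the 32 genes had an adjusted p under 0.05 with ICM higher, where 10.7% of all rows did, and 1 with TE higher, where 5.93% did. In the authors' deposited table these were HIST1H4A (adjusted p = 1.63e-09), HIST1H2BA (3.55e-05), HIST2H2AA3 (0.032) and, higher in TE, HIST1H1A (2.26e-06).

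In the other genes of H2A and H2B the ICM and TE values overlapped. The remaining 5 H2A cluster genes ranged from HIST3H2A, at 0.10 to 0.60 RPKM in ICM and 0.10 to 0.58 in TE, to HIST1H2AC, at 8.07 to 27.4 RPKM in ICM and 20.9 to 23.5 in TE. HIST1H2AB lay between 0.95 and 2.56 RPKM in ICM and between 1.46 and 2.24 in TE. HIST1H2AG lay between 4.30 and 14.1 RPKM in ICM and between 7.79 and 16.3 in TE. In these 4 genes the ICM range was wider than that of TE, by little in HIST3H2A. Among H2B genes HIST1H2BD (9.58 to 22.2 RPKM in ICM, 11.5 to 16.7 in TE) and HIST1H2BE (6.53 to 21.5 in ICM, 12.3 to 14.4 in TE) had their highest value in ICM 22. HIST1H2BB, HIST1H2BF, HIST1H2BJ and HIST1H2BM had means of at most 4.32 RPKM in ICM and 6.79 in TE, with limma adjusted p from 0.46 to 0.79. HIST1H2BK and HIST3H2BB stayed under the filter with 2 to 22 reads in any library.

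HIST1H2AH (H2A) and HIST1H2BN (H2B), on chromosome 20 (26069023 to 26069511 and 26095565 to 26096069), varied widely within both tissues. They are given by library after their values were seen. HIST1H2AH was at 19.8, 10.7 and 1.19 RPKM in ICM 15, 22 and 25 and at 28.9, 7.89 and 6.53 RPKM in TE 16, 23 and 24. HIST1H2BN was at 8.40, 9.43 and 0.90 RPKM in ICM 15, 22 and 25 and at 11.97, 3.61 and 3.75 RPKM in TE 16, 23 and 24. TE 16 was the highest and ICM 25 the lowest library in both. Neither was called (HIST1H2AH log2 difference -0.64, SE 0.81, limma adjusted p = 0.75, and HIST1H2BN -0.20, SE 0.66, adjusted p = 0.92), and both differences lay above 0 without ICM 25 (0.31 and 0.59). The row of HIST1H3D lies between them (26072397 to 26072807), and HIST1H2AG lies further on (from 26114874). In both of these TE 16 was the lowest TE library, at 0.47 RPKM in HIST1H3D and 7.79 RPKM in HIST1H2AG.

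Of histone H3 only 2 rows were in the table. The H3 gene HIST1H3H was at 7.24, 7.34 and 3.23 RPKM in ICM 15, 22 and 25 and at 3.63, 3.42 and 7.58 RPKM in TE 16, 23 and 24, with overlap (log2 difference 0.24, SE 0.37, limma adjusted p = 0.80). HIST1H3D, the other H3 row, stayed under the filter at 0.69, 1.47 and 0.10 RPKM in ICM 15, 22 and 25 and at 0.47, 0.63 and 0.58 RPKM in TE 16, 23 and 24, from 1 to 18 reads a library. The H4 gene HIST1H4C was at 3.11, 12.7 and 2.11 RPKM in ICM 15, 22 and 25 and at 5.40, 4.34 and 9.59 RPKM in TE 16, 23 and 24. Its ICM values enclosed those of TE (log2 difference -0.35, SE 0.53, adjusted p = 0.79). HIST1H4J (0.27 to 3.55 RPKM in ICM, 1.011 to 1.67 in TE) and HIST1H4B (0 to 1.22 in ICM, 0.47 to 1.04 in TE) were low, with at most 33 reads in a library. The row HISTH4, outside the rule, was at 0.22, 3.54 and 0.22 RPKM in ICM 15, 22 and 25 and at 3.21, 5.79 and 4.92 RPKM in TE 16, 23 and 24.

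The ICM libraries differed among themselves in the level of the histone genes followed here. The median SD of a gene within ICM was 0.63 log2 units over the 28 histone genes and 0.44 over all genes tested; within TE it was 0.22 and 0.19. Without ICM 25 the median SD within ICM was 0.39 and 0.25. ICM 25 was below all other libraries in 20 of the 32 histone genes, and in 42.8% of all rows. ICM 22 was the highest ICM library in 25 of the 32, and in 43.9% of all rows. Measured from the TE mean, the median of the 24 cluster histones tested was -0.40 in ICM 15, 0.27 in ICM 22 and -0.91 in ICM 25, where the median of all genes was -0.08, 0.05 and -0.43. As a share of reads, which does not use the size factors, the 32 genes took 0.155%, 0.167% and 0.110% in ICM 15, 22 and 25. In TE 16, 23 and 24 they took 0.149%, 0.156% and 0.149%. The part of the size factors in the low values of ICM 25 was not tested. No test was made of these differences between single libraries.

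**Figure D5:**
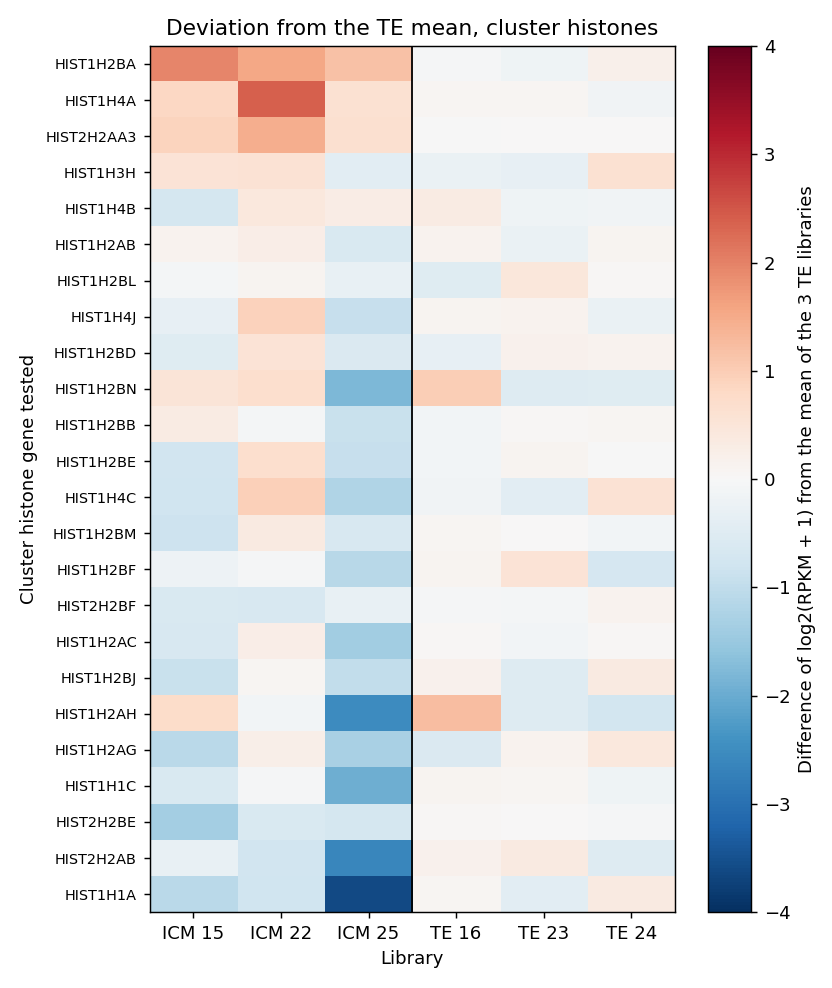
Colours give the difference of log2(RPKM + 1) from the mean of the 3 TE libraries for the 24 cluster histones tested (rows) in each library (columns, ICM left of TE). The median of the 24 rows is -0.40, 0.27 and -0.91 in ICM 15, 22 and 25, where that of all genes tested is -0.08, 0.05 and -0.43. The rows HIST1H2BA, HIST1H4A and HIST2H2AA3 are red in all 3 ICM libraries.

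As shares of reads, the 32 genes took 0.144% ± 0.030 in ICM libraries and 0.151% ± 0.0043 in TE libraries (SD, n = 3 each). The linker genes took 0.0115%, 0.0139% and 0.0031% in ICM 15, 22 and 25 and 0.0226%, 0.0178% and 0.0219% in TE 16, 23 and 24, with no overlap. The H4 rows took 0.0057%, 0.0164% and 0.0058% in ICM 15, 22 and 25 and 0.0038%, 0.0037% and 0.0033% in TE 16, 23 and 24, also with no overlap, and most of these reads were those of HIST1H4A. The shares of the cluster H2A, H2B and H3 rows overlapped between the tissues. So did those of all cluster rows and of the variants. Of single rows, 25.4% of all in the table did not overlap. These sums follow from the genes above and carry no test of their own.

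Genes that make, process and handle histones were read from the same fit. None of 16 genes for the transcription of histone genes and the processing of their messenger RNAs was called in either direction, where 1.87% of all genes tested were (limma; 1 had an unadjusted p under 0.05, higher in TE, against 11.6% of all genes, and voom called 0). Their median log2 difference was -0.32, and -0.11 without ICM 25. SLBP, which binds the stem-loop, averaged 10.995 ± 3.49 RPKM in ICM and 13.8 ± 1.74 in TE (adjusted p = 0.59). NPAT, the activator of cluster histone genes, was at 8.43 ± 1.98 RPKM in ICM and 10.5 ± 0.40 in TE (adjusted p = 0.57). CPSF3, the nuclease that cuts the precursor, had the smallest p (21.8 ± 6.63 RPKM in ICM, 34.3 ± 4.28 in TE, adjusted p = 0.28), followed by the zinc finger cofactor ZNF473 (4.44 ± 0.54 RPKM in ICM, 6.70 ± 0.64 in TE, adjusted p = 0.32).

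None of 31 genes listed for histone chaperones and exchange, the centromere histone CENPA among them, was called (limma). Of these genes 1 had an unadjusted p under 0.05, higher in TE, and voom called 0. Of all genes tested 1.87% were called and 11.6% had such an unadjusted p. Their median log2 difference was -0.16, and 0.02 without ICM 25. CABIN1, of the complex that deposits the H3.3 variant, was at 2.76 ± 0.74 RPKM in ICM and 5.47 ± 0.41 in TE (adjusted p = 0.15), and the chaperone DAXX at 9.43 ± 3.57 RPKM in ICM and 14.0 ± 2.92 in TE (adjusted p = 0.405). CENPA, the H3 variant of centromeres, which is outside the rule, was at 6.57 ± 2.999 RPKM in ICM and 7.64 ± 0.89 in TE (adjusted p = 0.73).

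None of 39 S phase genes was called with all libraries (limma; 6 had an unadjusted p under 0.05, all higher in TE, and voom called 0), and 1 was called, higher in TE, without ICM 25. Of all genes tested 1.87% were called, 11.6% had such an unadjusted p with TE higher, and 5.62% were called with TE higher without ICM 25. The median log2 difference of the S phase genes was -0.25, and 0.04 without ICM 25. The gene called was GINS4, of the replicative helicase (12.01 ± 1.80 RPKM in ICM, 24.3 ± 2.37 in TE, adjusted p = 0.077, and 0.022 without ICM 25). UHRF1, which binds hemimethylated DNA behind the replication fork, was at 1.36 ± 0.67 RPKM in ICM and 3.08 ± 0.56 in TE (adjusted p = 0.18). The median S phase gene stood -0.01, 0.06 and -0.87 log2 units from the TE mean in ICM 15, 22 and 25. The median of all genes stood at -0.08, 0.05 and -0.43 in these libraries. In ICM 25 the genes of histone supply stood at -0.66, the chaperones at -0.54 and the cluster histones at -0.91. In ICM 15 the cluster histones stood at -0.40. The part of S phase in the histone values was not tested.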

How the data were processed

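The authors deposited 1 table of 12270 rows holding RPKM for 6 libraries, per the file headers. The submitters' processing notes name FastQC and DESeq, without versions. The aligner, counter, build and annotation, and how reads shared between genes were treated, were not stated. The deposited baseMean (a signal, the mean of normalized counts), fold ratio, log2 fold, p-value and adjusted p-value are the authors' own, per the file headers. RPKM and baseMean together gave back reads (whole within 0.001 for 100% of values up to 1000 reads) and counted lengths. They also gave a size factor for each library, which the RPKM followed. It was 0.97 in ICM 25 (6622207 reads) and 0.99 in ICM 15 (7972431 reads).

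The filter asked for 1 RPKM or more in 3 or more libraries. The limma package (3.58.1, R 4.3.3; eBayes with trend, two-sided) was then run on log2(RPKM + 1), with Benjamini-Hochberg adjustment over all 9436 genes at 0.05, and was tested on simulated data. Differences are ICM minus TE. The pseudocount of 1 makes changes of low genes look smaller. Intervals from reads cover counting error only.

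Members and lists were chosen with earlier results of these data known. By rule, values in every library are given for members called in any fit, for members whose groups do not overlap, for the 2 with the highest mean in each class and for all variants. Of the related genes SLBP, NPAT, CENPA and the 2 with the smallest p in each list are named. Alternatives were other pseudocounts, filters and scalings, library weights, voom on the reads and each library left out. Symbols are as deposited, and 0 of the 32 were found in the NCBI gene table.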

Additional observations from a re-analysis of the deposited data

How the results depend on the processing

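The median difference over all genes, -0.15, moved to 0.01 (median of ratios) and -0.03 (quantile) on rescaling. No paired analysis was possible because no number is shared between the ICM and TE titles. The 88 genes called with ICM higher changed to 29 at a 5 RPKM filter and to 365 using library weights, and to 0 to 556 with 1 library left out. The 88 called with TE higher changed to 49 (pseudocount 0.1), 54 (unfiltered), 52 (5 RPKM filter) and 395 (library weights), and to 0 to 530 with 1 library left out. Of the histone genes, the 1 called with ICM higher changed to 0 at the 5 RPKM filter, which drops HIST1H2BA. It changed to 2 on either rescaling, HIST2H2AA3 being added (limma adjusted p = 0.033 and 0.034), to 3 using library weights, and to 0 to 3 with 1 library left out. The 0 called with TE higher changed to 1 using library weights (HIST2H2BE) and to 0 to 3 with 1 library left out. S phase calls changed to 1 using library weights and to 0 to 1 with 1 library left out.

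Differences near 0 changed sign. H2AFV ranged from -0.21 to 0.19 with 1 library left out, and was -0.04 without TE 23. H2AFZ was 0.0061 after median of ratios rescaling and 0.039 using library weights, and ranged from -0.35 to 0.11 with 1 library left out. HIST1H2BL was 0.10 after median of ratios rescaling, 0.0394 after quantile normalization and 0.081 by voom, and ranged from -0.33 to 0.13. HIST1H4C was 0.20 using library weights, and ranged from -0.99 to 0.076. None of these 4 genes was called in any fit, and the cause was not tested. With 4 reads of HIST1H2BA in TE, depth limits its fold.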
